A study of Mus musculus with 2 samples.

Results

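The 10 genes described here encode 3 tissue inhibitors of metalloproteinases (*Timp1*, *Timp2*, *Timp3*), 5 matrix metalloproteinases (*Mmp2*, *Mmp3*, *Mmp12*, *Mmp14*, *Mmp19*) and 2 secreted proteases with thrombospondin repeats (*Adamts1*, *Adamts5*). They were taken by name, as 10 of the 22337 gene symbols of the expression matrix, and were followed across the 14 annotated cell types and the 2 graft groups of a mouse heart transplant study. All 10 were above 0 in some cell, and together they had 19338 unique molecular identifiers (UMIs), each of which marks 1 captured transcript. In brief, 7 genes were at their highest mean in cells annotated fibroblasts, *Mmp12* and *Mmp19* were at theirs in cells of the myeloid types, and *Mmp14* was high in both. With all hearts used, none of the 10 genes passed the limma test between graft groups in any type where it had enough UMIs to be tested.

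The hearts came from Bm12 donors, a strain with an altered MHC class II molecule, and were transplanted to B6 recipients. Of the 6 hearts, 3 were from wild-type Bm12 donors (labelled IL-33+) and 3 from Bm12 donors in which the gene for the cytokine IL-33 was knocked out (labelled IL-33-), and all were collected on day 14. The recipients were B6 mice in both groups, so that the genotype difference lay in the graft, and the donors were described as matched for age and sex without an age being given. Cells were taken from the interphase of a Lympholyte-M gradient, which is made to collect mononuclear immune cells. The fibroblasts described here are therefore those that remained in a fraction made for immune cells. Each heart carried its own hashtag antibody and all 6 were captured as 1 pool.

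Matrix metalloproteinases are zinc enzymes that cut collagens, elastin, proteoglycans and many secreted or membrane-bound proteins, and most are made as inactive proenzymes. TIMPs bind their active sites and block them, and TIMP2 also takes part with the membrane enzyme MMP14 in the activation of pro-MMP2. In the injured heart, stromal cells and macrophages are known sources of these enzymes, whose balance with the TIMPs is tied to matrix turnover and scarring.

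Positions are given on GRCm38 from the GENCODE vM21 annotation. *Timp1* lies on the plus strand of chromosome X from 20870166 to 20874735, inside *Syn1* on the minus strand. *Timp3* lies on the plus strand of chromosome 10 from 86300372 to 86349506, within *Syn3* on the minus strand, and *Timp2* on the minus strand of chromosome 11 from 118301069 to 118355740, where it overlaps *Cep295nl* on the same strand. *Mmp12* (7344381 to 7369499) and *Mmp3* (7445822 to 7455975) lie close together on the plus strand of chromosome 9, and *Mmp12* overlaps *Mmp1b* on the minus strand. *Mmp2* lies on chromosome 8 from 92827291 to 92853420, *Mmp19* on chromosome 10 from 128790910 to 128800824 and *Mmp14* on chromosome 14 from 54431612 to 54445364, each on the plus strand, and *Mmp19* overlaps *Tmem198b* on the minus strand and the antisense gene *Gm47093*. *Adamts1* (85793827 to 85803113) and *Adamts5* (85856173 to 85901828) lie close together on the minus strand of chromosome 16.

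*Mmp12* and *Mmp3* are shown with 3 of the other genes because these genes, close together on 1 chromosome and read mainly from myeloid cells and from fibroblasts, share a motif close to a start site. The sequences are from RefSeq on GRCm38.p6, run from 5′ to 3′ on the strand of the gene, and hold the 100 bases before a start site. Capitals mark matches to 3 motifs that were searched on both strands: the AP-1 motif TGANTCA, the GC box GGGCGG and the TATA box TATAAA.
Mmp12, plus strand, chr9:7347274-7347373: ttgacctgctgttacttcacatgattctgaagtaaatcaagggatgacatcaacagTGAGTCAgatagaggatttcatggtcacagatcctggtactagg
Mmp3, plus strand, chr9:7445722-7445821: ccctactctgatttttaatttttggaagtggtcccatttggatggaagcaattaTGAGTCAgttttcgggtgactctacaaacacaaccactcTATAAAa
Mmp14, plus strand, chr14:54431498-54431597: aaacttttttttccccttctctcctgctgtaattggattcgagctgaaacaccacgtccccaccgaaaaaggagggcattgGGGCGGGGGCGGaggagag
Adamts1, minus strand, chr16:85803114-85803213: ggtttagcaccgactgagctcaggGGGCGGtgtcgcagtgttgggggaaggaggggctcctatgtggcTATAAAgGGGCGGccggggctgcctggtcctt
Timp1, plus strand, chrX:20870066-20870165: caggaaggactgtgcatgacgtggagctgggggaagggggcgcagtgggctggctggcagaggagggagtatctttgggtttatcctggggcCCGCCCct

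The AP-1 motif began 46 bases before the start of *Mmp3* and 44 bases before the downstream of 2 listed starts of *Mmp12*, with the same 7 letters in both. In the 250 bases before the start, the table held windows for 7 of the 10 genes, and no other of these windows contained TGANTCA, against 6.75% of all 32851 windows. The GC box was found before *Timp1*, *Timp2*, *Timp3*, *Mmp14* and *Adamts1*, against 32.7% of all windows, and the TATA box before *Mmp3* and *Adamts1*, against 12.4%. *Mmp2*, *Mmp19* and *Adamts5* were not searched. A match is a description of the letters and not of binding.

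The matrix held 4441 cells, between 230 and 1666 per heart, and the hearts had between 908137 and 7012943 UMIs. A cell had between 1500 and 14977 UMIs. The hearts were 1 pool with 1 row per cell barcode, so no barcode could be shared between hearts. Levels are given as CPM, a cell's UMIs of a gene scaled to a common total, and the level of a type in a heart is the mean of its cells. They come from the 3′ ends of transcripts and were not divided by length, so levels are compared between types and hearts but not between genes. The annotated fibroblasts numbered 34, 6 and 270 in replicates 1, 2 and 3 of the IL-33+ hearts and 31, 4 and 30 in those of the IL-33- hearts. Replicate 2 of each group thus rests on a handful of fibroblasts, and results that depend on it are also given without it. The macrophages numbered 192, 10 and 98 against 71, 21 and 37. The knocked-out gene did not check the labels: *Il33* was at 0 to 50.7 CPM in fibroblasts of the IL-33+ hearts and at 16.1 to 73.8 CPM in those of the IL-33- hearts, so the groups are named by their labels.

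At least 3 of 9 fibroblast markers were detected in 87.2% of the cells annotated fibroblasts, and at least 3 of 9 macrophage markers in 84.4% of those annotated macrophages. The label was mixed in 3 types. Of the 375 annotated fibroblasts, 57 had UMIs of at least 2 endothelial markers and of more endothelial than fibroblast markers. Of the 83 cells annotated unconventional T cells, 50 had at least 2 T cell and 2 macrophage markers. Of the 204 cells annotated monocyte-derived dendritic cells (Mo-DCs), 35 had at least 4 of 8 neutrophil markers, and the summed level of these markers by heart ranged from 1478 to 73580 CPM. The 9 fibroblast markers together reached between 0.787% and 1.51% of their fibroblast level in the 8 lymphocyte types, and this share is given below beside low levels as a background.

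The first question was where each gene was read. Types had been defined by clustering on all genes of these cells, so their order is a description with no test. *Timp1*, *Timp2*, *Timp3*, *Mmp2*, *Mmp3*, *Mmp14*, *Adamts1* and *Adamts5* had their highest mean over the 6 hearts in fibroblasts, and *Mmp12* and *Mmp19* had theirs in Mo-DCs, followed by macrophages. For *Timp1*, *Timp2*, *Timp3*, *Mmp2*, *Adamts1* and *Adamts5*, the fibroblast level was above that of the next type in 6 of 6 hearts. For *Mmp14* this held in 5 of 6 hearts and for *Mmp3* in 4 of 6, the other 2 having no *Mmp3* UMI in fibroblasts.

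**Figure D1:**
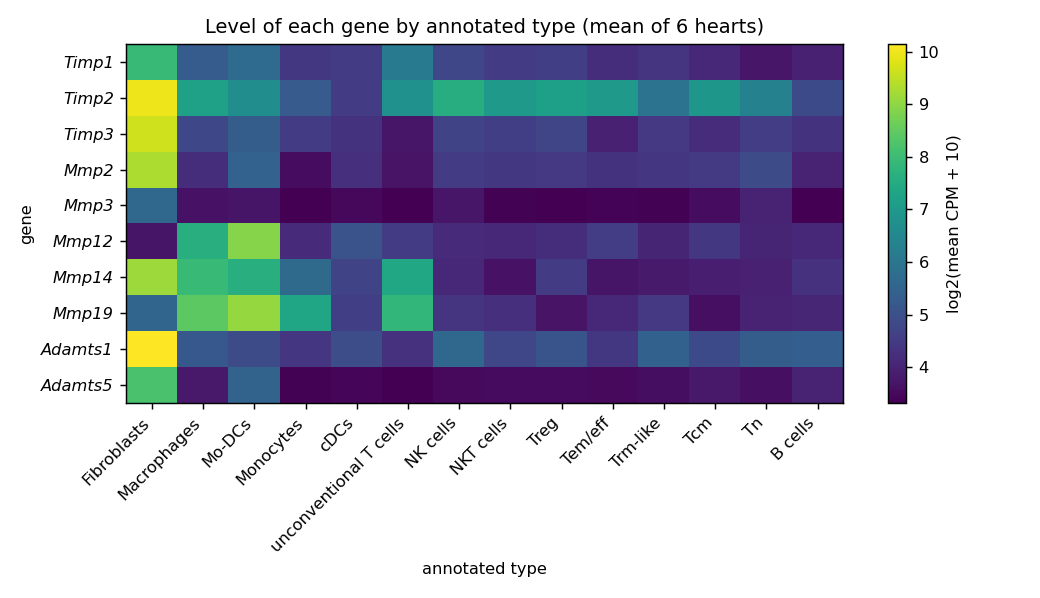
Level of the 10 genes in the 14 annotated types, as log2(mean CPM + 10) of the mean over 6 hearts, with genes as rows and types as columns. Fibroblasts stand highest for 8 genes, *Mmp12* and *Mmp19* stand highest in Mo-DCs and macrophages, and *Timp2* is the gene with a raised level in most lymphocyte types.

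Among the inhibitors, *Timp2* encodes the inhibitor that pairs with MMP14 and MMP2. Its level in fibroblasts was 1218, 484 and 1134 CPM in the IL-33+ hearts and 1041, 761 and 1380 CPM in the IL-33- hearts (1003 ± 327 CPM, SD, n = 6). The lowest value came from the IL-33+ heart with 6 fibroblasts. The next type was NK cells, at 242, 172 and 195 CPM against 146, 136 and 196 CPM (181 CPM on average), then macrophages at 140 ± 34.6 CPM. NK cells were above macrophages in 5 of 6 hearts, and below these the levels of Treg (134 CPM), Tem/eff (120 CPM), NKT (119 CPM) and Tcm cells (111 CPM) followed each other in 3 or 4 of 6 hearts only, and so were not ordered beyond their spread.

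*Timp2* was the fibroblast gene with the highest median share in lymphocytes. Its level in NK cells was 18.1% of that in fibroblasts, and in B cells, the lowest of the lymphocyte types, 1.88%. Over the 8 lymphocyte types the median was 11.5% for *Timp2*, against 4.07% for *Timp1*, 2.44% for *Adamts1*, 1.90% for *Mmp2*, 1.61% for *Timp3*, 1.01% for *Mmp3*, 0.913% for *Mmp14*, 0.621% for *Adamts5* and 1.32% for the summed fibroblast markers. A *Timp2* UMI was found in 341 of 931 NK cells (36.6%, 95% Wilson interval 33.6% to 39.8%, median depth 2712 UMIs), in 326 of 375 fibroblasts (86.9%, median depth 5790 UMIs) and in 17 of 286 B cells (5.94%, median depth 2292 UMIs). With each cell thinned to 1500 UMIs, the share was 23.4% in NK cells, 15.4% in NKT cells, 15.4% in Treg, 66.7% in fibroblasts and 3.83% in B cells. Intervals cover counting error only.

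*Timp3*, which encodes the inhibitor that stays bound to matrix, was at 823, 823 and 1000 CPM in fibroblasts of the IL-33+ hearts and at 1007, 102 and 989 CPM in those of the IL-33- hearts. The low value is that of the heart with 4 fibroblasts, in which it rested on 2 UMIs. All other types were at or under 30.3 CPM on average, 26.1-fold below fibroblasts. *Timp1*, which encodes a soluble inhibitor that is often raised in inflammation, was at 331, 319 and 180 CPM against 141, 195 and 233 CPM in fibroblasts. It was followed by unconventional T cells at 60.8 CPM, Mo-DCs at 42.7 CPM and macrophages at 29.5 CPM, with unconventional T cells above Mo-DCs in 4 of 6 hearts and Mo-DCs above macrophages in 1 of 6. A *Timp1* UMI was found in 45.3% of fibroblasts and 15.6% of macrophages, and in 2.10% of B cells; after thinning these shares were 19.9%, 5.06% and 1.34%.

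Among the proteases of fibroblasts, *Mmp2* encodes gelatinase A, a secreted enzyme of denatured and basement membrane collagen. It was at 673, 394 and 968 CPM in the IL-33+ hearts and at 700, 262 and 763 CPM in the IL-33- hearts, with the lowest values in the 2 hearts with few fibroblasts. Mo-DCs came next at 34.4 CPM, 18.2-fold lower. A *Mmp2* UMI was found in 282 of 375 fibroblasts, of which 269 also had a *Timp2* UMI and 237 a *Mmp14* UMI. These were 95.4% and 84.0% of the cells with *Mmp2*, next to 86.9% and 74.1% of fibroblasts as a whole. Without the 57 cells with more endothelial than fibroblast markers, the shares of fibroblasts were 92.5% and 79.6%. Shares of cells with both genes, here and below, were taken without thinning, and the part of cell depth in them was not tested.

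*Adamts1* and *Adamts5* encode enzymes that cut the proteoglycans versican and aggrecan. *Adamts1* was at 602, 1123 and 1153 CPM against 1197, 1842 and 824 CPM in fibroblasts, and at 39.2 CPM in NK cells, the next type, 28.7-fold lower. *Adamts5* was at 356, 227 and 409 CPM against 354, 73.8 and 260 CPM, and at 34.7 CPM in Mo-DCs, which came from 5 UMIs in all. Of the 909 UMIs of *Adamts5*, 95.1% were in fibroblasts, the highest share of the 10 genes. *Adamts1* was found in 292 fibroblasts and *Adamts5* in 203, of which 154 had both.

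*Mmp3* encodes stromelysin 1, which cuts many matrix proteins and activates other proenzymes. It had only 187 UMIs, of which 152 were in fibroblasts and 118 of these in 1 heart, replicate 3 of the IL-33+ group. Its fibroblast level was 30.7, 0 and 71.7 CPM against 61.2, 0 and 75.6 CPM. Only 34 of 375 fibroblasts (9.07%) had a UMI, and 31 of these 34 (91.2%) also had *Mmp2*, next to 75.2% of fibroblasts as a whole. Without the 57 cells with more endothelial than fibroblast markers, *Mmp2* was found in 86.5% of fibroblasts.

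*Mmp14*, which encodes a membrane-bound enzyme that cuts collagen at the cell surface, was read from stromal and myeloid cells. In fibroblasts it was at 536, 80.9 and 453 CPM in the IL-33+ hearts and at 339, 1413 and 549 CPM in the IL-33- hearts. Both extremes were the hearts with 6 and 4 fibroblasts, and rested on 3 and 32 UMIs. In macrophages it was at 161, 274 and 139 CPM against 283, 220 and 311 CPM, a much narrower range. Mo-DCs (184 CPM) and unconventional T cells (161 CPM) followed, each above the next type in 4 and 5 of 6 hearts, and monocytes were at 41.5 CPM. A UMI was found in 74.1% of fibroblasts, 47.6% of macrophages, 16.9% of monocytes and 2.45% of B cells. After thinning these shares were 41.6%, 21.2%, 5.68% and 1.41%.

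*Mmp19*, which encodes an enzyme of basement membrane proteins, was read from Mo-DCs, macrophages, unconventional T cells and monocytes. In macrophages it was at 374, 209 and 250 CPM against 251, 716 and 189 CPM, and in monocytes at 122, 55.4 and 276 CPM against 169, 82.8 and 230 CPM. Unconventional T cells, of which 91.6% had at least 2 of 9 macrophage markers, averaged 219 CPM and were above monocytes in 3 of 6 hearts. Monocytes were above fibroblasts (36.7 CPM) in 6 of 6 hearts. A UMI was found in 210 of 429 macrophages (49.0%) and in 75 of 154 monocytes (48.7%), against 2.45% of B cells. After thinning the shares were 25.9%, 18.4% and 1.38%. Mo-DCs had the highest mean, 522 CPM, but were above macrophages in only 4 of 6 hearts. Their top value, 1545 CPM, came from 23 UMIs in a heart with 7 Mo-DCs. The most *Mmp19* UMIs in a single Mo-DC of any heart were 21.

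*Mmp12* encodes macrophage elastase. In macrophages it was at 152, 9.92 and 425 CPM in the IL-33+ hearts and at 121, 363 and 48.9 CPM in the IL-33- hearts. Both groups held a high and a low heart. The signal was concentrated in few cells: only 70 of 429 macrophages (16.3%) had a UMI, and the 43 macrophages with most UMIs held 96.0% of the 756. Chosen in the same way for each gene, the top 43 macrophages held 49.9% of *Mmp14* UMIs and 56.3% of *Mmp19* UMIs. In replicate 3 of the IL-33+ hearts 1 macrophage alone had 203 *Mmp12* UMIs of its 9911, and without it the level in that heart was 218 CPM instead of 425. Of the 70 macrophages with *Mmp12*, 38 also had *Mmp19* and 41 had *Mmp14*, shares of 54.3% and 58.6%, next to 49.0% and 47.6% in macrophages as a whole.

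Mo-DCs had the highest mean of *Mmp12*, 469 CPM, which was set by 1 heart. The values were 143, 2068 and 87.1 CPM against 28.7, 0 and 490 CPM, and the 2068 CPM came from 22 UMIs in a heart with 4 Mo-DCs. The most *Mmp12* UMIs in a single Mo-DC of any heart were also 22. Mo-DCs were above macrophages in 2 of 6 hearts. Macrophages were above cDCs (23.6 CPM) in 6 of 6. Of the 35 Mo-DCs with at least 4 neutrophil markers, 1 had a *Mmp12* UMI, 2 had *Mmp19* and 0 had *Mmp14*, whereas of the 169 others 24, 28 and 32 did. The 3 proteases of Mo-DCs were therefore read mainly from the cells with fewer than 4 neutrophil markers.

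**Figure D2:**
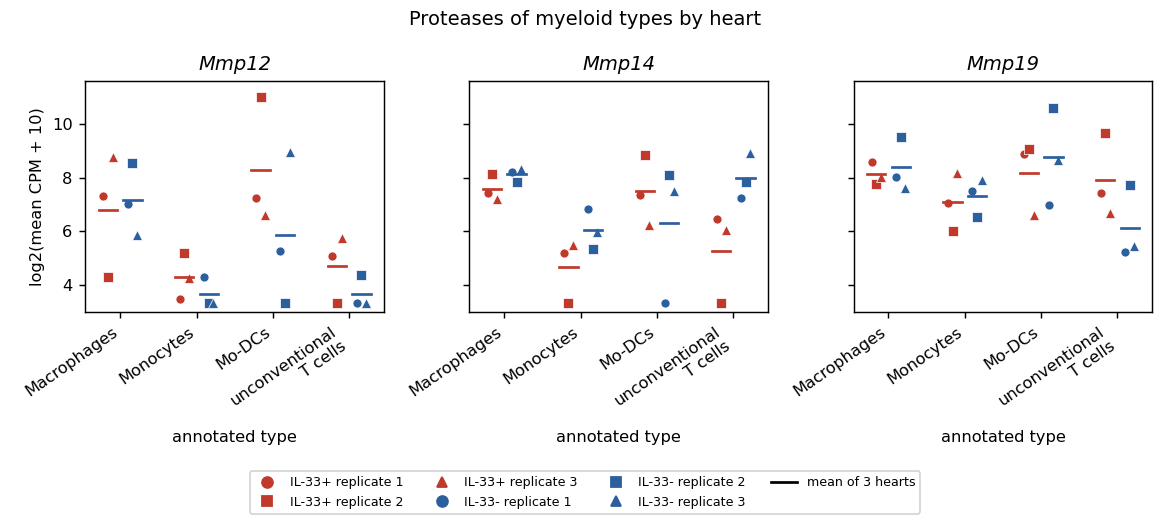
Level of *Mmp12*, *Mmp14* and *Mmp19* in 4 annotated types, as log2(mean CPM + 10), with 1 point per heart (red IL-33+, blue IL-33-) and a line at the mean of 3 hearts. *Mmp12* in macrophages spreads from 9.92 to 425 CPM over hearts, while *Mmp14* in macrophages stays between 139 and 311 CPM.

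Over the 14 types, the genes whose level ran most like each member were named by Pearson's r of log2(mean CPM + 10), a description in which all points come from the same pool of libraries. The genes most like *Timp3* were *Fbln2*, *Bgn* and *Sparcl1* (r between 0.985 and 0.987), those most like *Adamts1* were *Fermt2*, *Lum* and *Col4a2* (0.988 to 0.990), those most like *Mmp2* were *Nfib*, *Ackr3* and *S100a16* (0.985 to 0.988) and those most like *Adamts5* were *Evc*, *Tsku* and *Pcolce* (0.987 to 0.991). For *Mmp3* they were *Foxc1*, *Phactr1* and *Meox1* (0.982 to 0.985), for *Timp1* *Slc39a10*, *Pmp22* and *Tlr3* (0.952 to 0.968) and for *Timp2* *Arhgap10*, *Pcyox1* and *Actn4* (0.880 to 0.910). Fibroblasts are the 1 high point in most of these, and over the 13 other types r between *Timp3* and *Bgn* was 0.787 and between *Adamts1* and *Col4a2* 0.840.

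The genes most like *Mmp14* were *Ccl2*, *Creb5* and *Pla2g4a* (0.966 to 0.981), those most like *Mmp19* were *Gm10134*, *Calhm6* and *Adap2* (0.967 to 0.975) and those most like *Mmp12* were *Rps6ka2*, *S100a9* and *Alox15* (0.925 to 0.931). *Ccl2* encodes a chemokine that attracts monocytes and *S100a9* a calcium-binding protein of neutrophils and monocytes. Likeness over types does not place genes in the same cells: *S100a9* is 1 of the 8 neutrophil markers, and of the 35 Mo-DCs with at least 4 of these 1 had a *Mmp12* UMI. Among the members, *Timp3* and *Mmp2* were most alike (r = 0.967 over 14 types, 0.657 without fibroblasts), whereas *Mmp14* and *Mmp19* reached 0.785 over all types and 0.952 without fibroblasts.

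The annotated fibroblasts were next divided by their markers, since endothelial cells make some of these genes. The cells with endothelial markers numbered 4, 2 and 42 in the IL-33+ hearts and 8, 0 and 1 in the IL-33- hearts. All of them had at least 3 of the 9 endothelial markers, of which the rule required at least 2. At least 2 of the 9 fibroblast markers were found in 54.4% of these cells and at least 3 in 22.8%, although *Pdgfra* was at 0 in them. At least 3 of 6 mural cell markers were found in 21.1% of them, against 3.14% of the other fibroblasts, and summed to 0 to 5362 CPM by heart against 46.5 to 887 CPM. The part of mural cells in the differences below was not tested. The rule was set on markers alone and used none of the 10 genes.

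*Timp3* and *Adamts1* were read from both kinds of cell. Over cells, *Timp3* averaged 1208 CPM in the endothelial-marker cells and 929 CPM in the other fibroblasts, and *Adamts1* averaged 1880 CPM and 945 CPM. *Timp3* was higher in the endothelial-marker cells in 4 of the 5 hearts that held both kinds, and so was *Adamts1*. In contrast, *Mmp2* averaged 24.1 CPM and 1040 CPM, *Adamts5* 20.2 CPM and 446 CPM, and *Timp2* 215 CPM and 1305 CPM, each lower in the endothelial-marker cells in 5 of 5 hearts. *Mmp14* averaged 150 CPM and 519 CPM and was lower in 4 of 5 hearts, *Timp1* 41.5 CPM and 225 CPM, lower in 4 of 5, and *Mmp3* 7.68 CPM and 75.9 CPM.

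Within hearts, the mean difference in log2(CPM + 10) was -5.19 ± 2.00 for *Mmp2*, -4.50 ± 0.918 for *Adamts5* and -2.36 ± 1.17 for *Timp2* (SD, n = 5 hearts). It was 0.80 ± 1.06 for *Adamts1* and -0.21 ± 1.86 for *Timp3*, of which the second was turned by replicate 3 of the IL-33- hearts with its 1 endothelial-marker cell. In the 3 hearts with at least 4 such cells the difference of *Timp3* was 0.74 and it was higher in 3 of 3. A two-sided exact sign-flip permutation test over 5 hearts cannot give a p under 0.0625, which *Mmp2*, *Adamts5* and *Timp2* reached, and none of the 10 differences could pass 0.05.

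**Figure D3:**
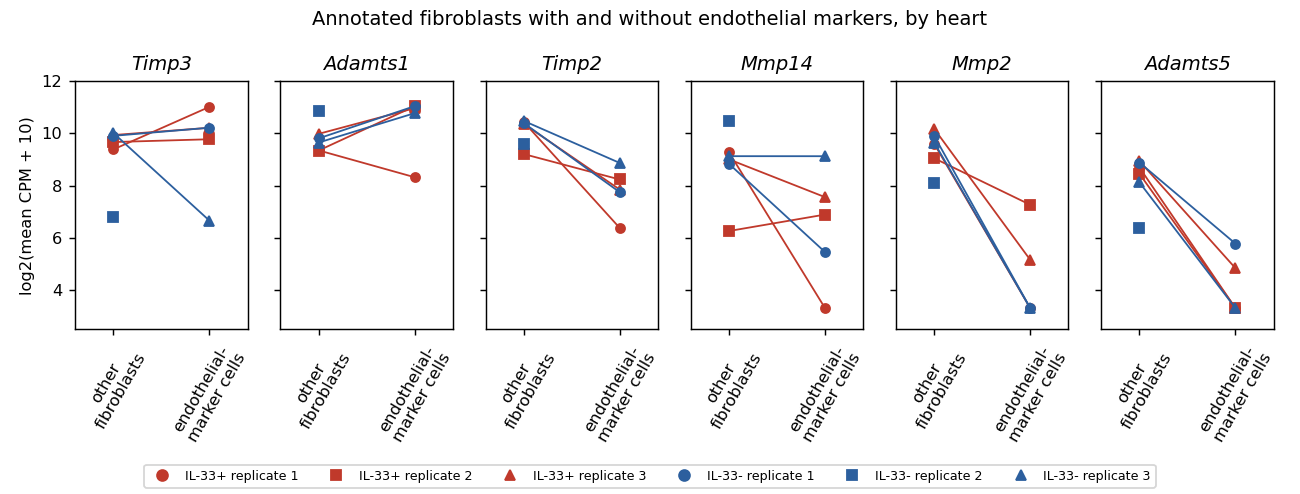
Level of 6 genes, as log2(mean CPM + 10), in annotated fibroblasts without the endothelial-marker cells and in the endothelial-marker cells, with 1 line per heart and a lone point for the heart with 0 endothelial-marker cells. *Mmp2*, *Adamts5* and *Timp2* are lower in the endothelial-marker cells in 5 of 5 hearts, and *Adamts1* is higher in 4 of 5.

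The second question was whether the level of the genes differed between IL-33+ and IL-33- grafts. Each heart gave 1 value per type, and log2(mean CPM + 10) was compared with limma. The fit took in all genes that had 10 UMIs or more in the type and were seen in 3 or more hearts. Calls were made where p, adjusted by Benjamini-Hochberg over the genes tested in that type, did not exceed 0.05. In fibroblasts all 10 genes were tested, and 0 were called by limma, next to 0.0187% of the 10691 genes tested, which were *Ccl2* and *Ccl7*. By limma-voom on summed UMIs 0 were called as well. At an unadjusted p of 0.05 or less 1 of the 10 stood, *Mmp14*, next to 3.16% of all genes, and 0 of the 10 had groups that did not overlap, next to 7.98% of all genes. The median log2 fold change was -0.20 over the 10 genes and 0.07 over all genes tested.

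*Mmp14* had the largest difference in fibroblasts. Its mean was 356 ± 242 CPM in the IL-33+ hearts and 767 ± 569 CPM in the IL-33- hearts (SD, n = 3 each), a log2 fold change of -1.20 (standard error 0.46, 95% interval -2.14 to -0.26, adjusted p = 0.998 from limma). The groups overlapped, and the difference rested on the hearts with 6 and 4 fibroblasts. Among the hearts with at least 10 fibroblasts, 2 in each group, the log2 fold change was 0.19. Without replicate 1 of the IL-33+ hearts the gene was called (log2 fold change -1.67, adjusted p = 0.0093 from limma).

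For the inhibitors the log2 fold changes in fibroblasts were 0.87 (standard error 0.46) for *Timp3*, 0.50 (0.37) for *Timp1* and -0.23 (0.31) for *Timp2*. That of *Timp3* followed the heart with 4 fibroblasts, and was -0.18 without it. *Timp1* was the steadiest of the 3, between 0.31 and 0.77 with each heart left out, although its groups overlapped at 180 and 233 CPM. For the proteases the values were 0.71 (0.42) for *Adamts5*, 0.29 (0.35) for *Mmp2*, -0.16 (0.79) for *Mmp19*, -0.29 (0.86) for *Mmp3*, -0.29 (0.42) for *Mmp12* and -0.40 (0.30) for *Adamts1*. That of *Adamts5* ran from 0.079 to 1.14 with each heart left out, and was lowest without the heart with 4 fibroblasts. The intervals of these 9 genes all held 0, and the widest, that of *Mmp3*, ran from -2.04 to 1.46.

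**Figure D4:**
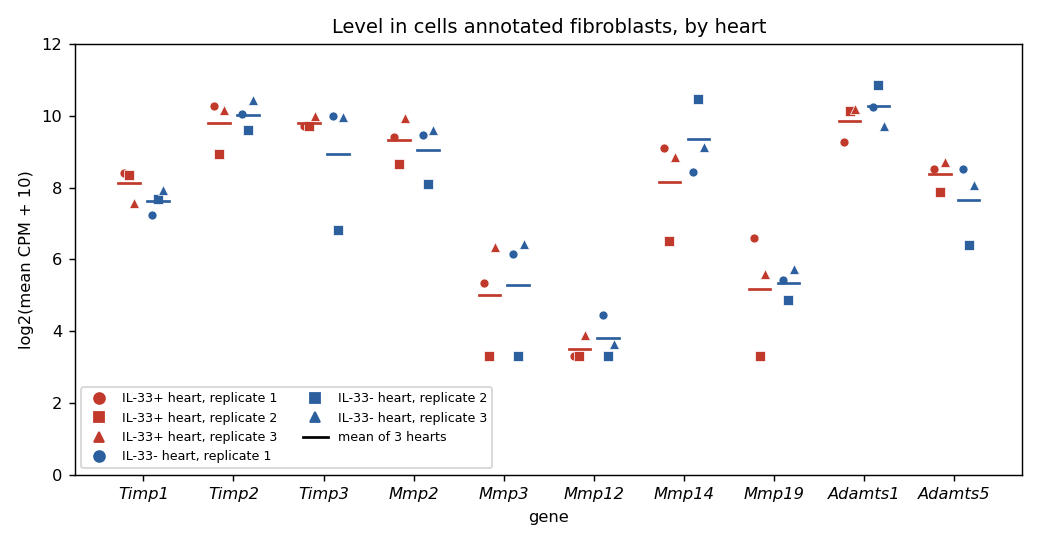
Level of the 10 genes in annotated fibroblasts, as log2(mean CPM + 10), with 1 point per heart (red IL-33+, blue IL-33-) and a line at the mean of 3 hearts. The 2 groups overlap for all 10 genes, and the squares, which are the hearts with 6 and 4 fibroblasts, are the lowest and the highest for *Mmp14* and the 2 lowest for *Mmp2* and *Timp2*.

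With the endothelial-marker cells left out, 0 of the 10 genes were called by limma, next to 0.128% of 10172 genes. At an unadjusted p of 0.05 or less 3 stood, next to 3.84% of all genes, and 0 had groups that did not overlap, next to 7.61%. By limma, *Mmp14* had a log2 fold change of -1.30 with a standard error of 0.35 (adjusted p = 0.135), followed by 0.90 (0.39) for *Adamts5* and 0.75 (0.33) for *Timp3*. In this fit limma gave genes of like mean level the same spread, so these errors are those of genes at large. The Mo-DC fit behaved in the same way. Among the hearts with at least 10 such cells the values were 0.16 for *Mmp14*, 0.31 for *Adamts5* and -0.30 for *Timp3*.

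In macrophages 9 of the 10 genes were tested, all but *Mmp3*, and 0 were called by limma or by limma-voom, next to 0.0% of 9682 genes. At an unadjusted p of 0.05 or less 0 stood, next to 4.04% of all genes, and 0 had groups that did not overlap, next to 8.98%. The median log2 fold change was -0.35 over the 9 genes and -0.05 over all genes. *Mmp14* was at 191 ± 72.3 CPM in the IL-33+ hearts and 271 ± 46.8 CPM in the IL-33- hearts (log2 fold change -0.53, standard error 0.27, 95% interval -1.09 to 0.04). *Mmp19* averaged 278 ± 86.1 CPM in the IL-33+ hearts and 385 ± 288 CPM in the IL-33- hearts (log2 fold change -0.26, standard error 0.35). *Mmp12* averaged 195 ± 211 CPM and 178 ± 165 CPM, the higher mean being that of the IL-33+ hearts, although the log2 fold change, a difference of mean log2 values, was negative (-0.35, 0.73). By limma-voom it was 0.77.

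Of the other genes tested in macrophages, *Timp2* was at 140 CPM and the rest were at 29.5 CPM or less on average. *Timp1* had a log2 fold change of 0.75 (standard error 0.53), *Timp2* of -0.25 (0.29), *Timp3* of -0.65 (0.57), *Adamts1* of -0.60 (0.46), *Mmp2* of -0.39 (0.43) and *Adamts5* of -0.21 (0.37). *Timp3*, *Adamts1*, *Mmp2* and *Adamts5* were at a small share of their fibroblast level there. *Timp3* and *Adamts1* were at their highest, 65.8 and 53.2 CPM, in replicate 2 of the IL-33- hearts, where the summed fibroblast markers in macrophages were also at their highest, 1851 CPM against 654 to 1052 CPM in the other hearts. The part of this in the differences was not tested.

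**Figure D5:**
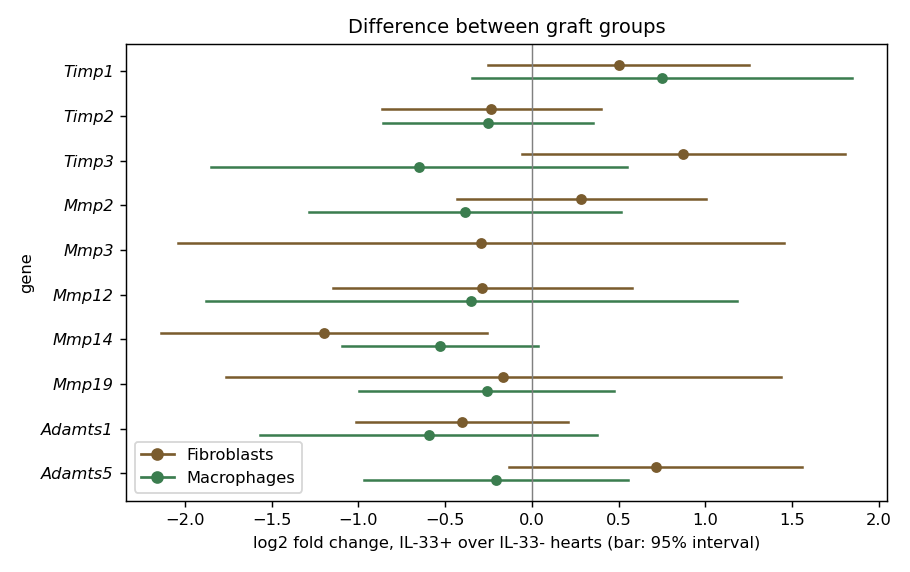
Log2 fold change of each gene, IL-33+ over IL-33- hearts, in annotated fibroblasts and macrophages, with bars for the 95% interval from limma (3 hearts in each group). All intervals reach 0 except that of *Mmp14* in fibroblasts, which runs from -2.14 to -0.26 before adjustment over genes, and *Mmp3* was tested in fibroblasts only.

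Whether the group difference was itself different between fibroblasts and macrophages was tested on the difference of the levels within each heart. Of the 9 genes that could be tested, 0 were called by limma, next to 0.0% of 8794 genes, and 0 stood at an unadjusted p of 0.05 or less. The largest value was that of *Timp3*, 1.52 on the log2 scale with a standard error of 1.24. The intervals were wide, from -1.22 to 4.27 for *Timp3* and from -2.80 to 1.46 for *Mmp14*.

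In the 12 other types the genes were tested 71 times, and 0 of these tests were called by limma, next to 0.00862% of 92801 tests of all genes. At an unadjusted p of 0.05 or less 6 stood, next to 4.96% of all tests, and in 5 the groups did not overlap, next to 10.1%. Those shares are near the background. *Timp2* in NK cells, the lymphocyte type in which it was highest, was at 203 ± 35.3 CPM in the IL-33+ hearts and 160 ± 31.8 CPM in the IL-33- hearts (log2 fold change 0.33, standard error 0.20, adjusted p = 0.86 from limma), with groups that overlapped.

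The 2 largest differences were in the types with mixed markers. *Mmp14* in unconventional T cells was at 77.5, 0 and 56.1 CPM in the IL-33+ hearts and 141, 222 and 472 CPM in the IL-33- hearts, and the groups did not overlap (log2 fold change -2.73, standard error 0.65, adjusted p = 0.265 from limma). These hearts held 25, 2 and 27 against 18, 7 and 4 such cells, and the macrophage markers summed to 2485 to 3551 CPM in the IL-33+ hearts and 3378 to 4941 CPM in the IL-33- hearts. *Mmp14* averaged 111 CPM in the 50 cells with at least 2 T cell and 2 macrophage markers and 117 CPM in the 33 others. The others were not free of macrophage markers. Of all 83 cells, 91.6% had at least 2 macrophage markers and 67.5% had at least 2 T cell markers. The part of the macrophage markers in the group difference was not tested. With replicate 1 or replicate 3 of the IL-33+ hearts left out the gene was called (adjusted p = 0.000208 and 0.00451 from limma), and with the hearts of at least 10 such cells, 2 against 1, the log2 fold change was -0.99.

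In the same cells *Mmp19* had a log2 fold change of 1.78 (standard error 0.63) and *Timp1* of 1.80 (0.82), both with their highest value, 792 and 187 CPM, in the heart with 2 cells. *Mmp12* in Mo-DCs had a log2 fold change of 2.44 (0.77, adjusted p = 0.501 from limma). It rested on the heart with 4 Mo-DCs and 22 UMIs, and was -0.19 among hearts with at least 10 Mo-DCs. The neutrophil markers in these cells summed to 1651, 8623 and 7821 CPM in the IL-33+ hearts and 73580, 17010 and 1478 CPM in the IL-33- hearts, and their part in the difference was not tested.

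The other tests in which the groups did not overlap or the unadjusted p was 0.05 or less were at low levels. *Adamts1* in B cells was at 53.4 CPM against 8.18 CPM from 22 and 6 UMIs (log2 fold change 2.06), *Mmp2* in Tem/eff cells at 16.7 CPM against 3.63 CPM from 13 and 4 UMIs (0.98), *Mmp19* in NK cells at 15.8 CPM against 5.95 CPM from 24 and 6 UMIs (0.73), and *Timp3* in Tcm cells at 5.21 CPM against 11.3 CPM from 4 and 7 UMIs (-0.53). Their adjusted p was between 0.844 and 0.998 from limma. *Adamts1* in B cells was at 24.6, 0 and 0 CPM in the IL-33- hearts, which held 91, 4 and 15 such cells. The summed fibroblast markers were at 0.787% to 1.51% of their fibroblast level in lymphocytes, and the part of such RNA in the differences was not tested.

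The share of each gene's UMIs that came from fibroblasts was compared as 1 value per heart. It varied with the number of fibroblasts captured, which made up 3.93%, 2.61% and 16.2% of the cells in the IL-33+ hearts and 3.71%, 1.41% and 5.37% in the IL-33- hearts. For *Mmp2* the share was 77.2%, 70.8% and 95.6% against 82.9%, 50% and 90.2%, and for *Adamts5* 91.0%, 80.0% and 97.7% against 90.0%, 42.9% and 86.8%. For *Mmp14* it was 31.7%, 10.7% and 80.5% against 27.8%, 31.4% and 51.3%, so that fibroblasts or other cells held most of the UMIs depending on the heart. For *Mmp12* it was at most 2.44% and for *Mmp19* at most 17.7%. The two-sided exact permutation p was between 0.4 and 0.9 for the 9 genes with UMIs in all hearts, where 0.1 is the smallest p that 3 hearts against 3 can give.

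The other genes of the pathway were read from 6 lists. Of 15 further metalloproteinases in the matrix, *Mmp8* and *Mmp9*, the collagenase and gelatinase of neutrophil granules, were highest in Mo-DCs (193 and 200 CPM), and *Mmp25* in cDCs (185 CPM). *Mmp23* was highest in fibroblasts (108 CPM). *Adamts2* (244 CPM), which trims procollagen, *Adamts9* (170 CPM) and *Adamts4* (81.4 CPM) were highest in fibroblasts, whereas *Adamts14* was highest in NK cells (147 CPM). The urokinase gene *Plau* was highest in macrophages (112 CPM), and *Plat* in fibroblasts (390 CPM). *Timp4* was at 3.09 CPM at most.

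In fibroblasts 52 of the 72 listed genes were tested, of which 25 had a positive and 27 a negative log2 fold change. By limma 0 were called, and 11 stood at an unadjusted p of 0.05 or less, next to 3.16% of all genes. Among hearts with at least 10 fibroblasts 6 stood at that p, next to 4.62% of all genes. With all hearts used, the groups did not overlap in 4 of the 52, next to 7.98% of all genes. The 2 with the largest log2 fold change were *Adam17*, the TNF sheddase (1.39, standard error 0.66), and *Adamts7* (1.30, 0.55), and the 2 with the smallest were *Adam12* (-1.69, 0.76) and *Col1a1* (-1.31, 0.48). By list, 5 of 6 metalloproteinases, 5 of 10 ADAMTS genes, 3 of 7 ADAM sheddases, 5 of 8 inhibitors and 2 of 5 genes of plasminogen activation were positive. Of the 16 matrix substrates 5 were positive and 11 negative, and 7 stood at an unadjusted p of 0.05 or less, or 2 of 16 among hearts with at least 10 fibroblasts, where 4.62% of all genes did. *Col1a1*, the main chain of type I collagen, was at 4751, 385 and 2156 CPM against 2293, 8674 and 3089 CPM, with both extremes in the hearts with few fibroblasts. It was among the 13 genes called by limma with the endothelial-marker cells left out, the fit in which errors are those of genes at large.

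In macrophages 39 listed genes were tested, 17 with a positive and 22 with a negative log2 fold change. Of these 0 were called by limma, and 1, *Dcn*, stood at an unadjusted p of 0.05 or less, next to 4.04% of all genes. In 8 of the 39 the groups did not overlap, next to 8.98% of all genes. *Mmp13* (0.80, standard error 0.41) and *Adamts14* (0.56, 0.42) had the largest values, and *Serping1* (-0.91, 0.50) and *Dcn* (-0.85, 0.30) the smallest. *Dcn*, the gene of the proteoglycan decorin and a fibroblast marker, was at 113, 111 and 177 CPM against 210, 384 and 179 CPM, highest in the heart where the summed fibroblast markers in macrophages were also highest. By list, 2 of 4 metalloproteinases, 1 of 3 ADAMTS genes, 5 of 6 ADAM sheddases, 3 of 5 inhibitors, 2 of 5 genes of plasminogen activation and 4 of 16 matrix substrates were positive.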

How the data were processed

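Single cells of 6 transplanted hearts, 3 in each graft group, were measured by droplet RNA sequencing of 3′ transcript ends, and the hearts are separate animals and the replicates of all tests. The authors ran Cell Ranger on mm10 and Partek Flow (version 10.0.23.0425), filtered cells on UMIs, genes and mitochondrial share, which also served against doublets, and deposited log2(CPM + 1) values with an annotated type per cell. No doublet caller was run here. Cells were assigned to hearts by hashtag. UMIs were recovered from the steps of the deposited log2 values: 99.941% of low values were whole within 0.05 UMI, as were 5159 of 5159 values of the 10 genes.

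Each heart gave 1 mean CPM per type, taken over its cells, to which 10 CPM was added. Genes with fewer than 10 UMIs or UMIs in fewer than 3 hearts were removed. Log2 values were then compared with limma 3.58.1 in R 4.3.3 (trended empirical Bayes, two-sided). The within-heart difference between fibroblasts and macrophages was fitted by limma without the trend. In a check on simulated summed UMIs the test missed many of the 4-fold changes put in, more of them in fibroblasts than in macrophages. It also gave some false calls. A gene that was not called may therefore still differ. Fold changes are on the log2(CPM + 10) scale, which understates the change of low genes. Single values per heart were compared by exact permutation tests. For detection, cells were thinned to 1500 UMIs. All 10 genes are reported, and in the other lists the 2 largest and 2 smallest log2 fold changes. Likeness was ranked over genes with at least 50 UMIs. The genes and lists were chosen with earlier results of these data known. Alternatives were other pseudocounts, no filter, summed UMIs, limma-voom, hearts with at least 10 cells and each heart left out. Summed UMIs and hearts of at least 10 cells for the subsets, the sign-flip test and the hearts with at least 4 endothelial-marker cells were added after seeing the data.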

Additional observations from a re-analysis of the deposited data

How the results depend on the processing

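The precision in fibroblasts was limited by 2 hearts that held 6 and 4 of them. Of 31 log2 fold changes, 138 alternative values other than leaving out a heart gave 10 reversals and 0 new calls. Among hearts with at least 10 cells, the log2 fold change was 0.19 for *Mmp14*, 0.52 for *Mmp19* and -0.14 for *Timp3* in fibroblasts, 0.16 for *Mmp14* and -0.30 for *Timp3* with the endothelial-marker cells left out, and -0.19 for *Mmp12* in Mo-DCs. With limma-voom it was 0.77 for *Mmp12* and 0.027 for *Timp3* in macrophages and 0.055 for *Mmp3* in fibroblasts. With a pseudocount of 50 CPM *Mmp19* in fibroblasts was at 0.062. In hearts with at least 4 endothelial-marker cells the difference to other fibroblasts was 0.74 for *Timp3* and 0.014 for *Mmp12*. The cause of these changes was not tested.

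The number of genes called in fibroblasts was 2, and was 0 with summed UMIs, with no filter, with a pseudocount of 1 CPM and with limma-voom, and 11 among hearts with at least 10 cells. With the endothelial-marker cells left out it was 13, or 1 with summed UMIs. In the 12 other types it was 8, or 4 among hearts with at least 10 cells. Thinning lowered the share of fibroblasts with a UMI to 19.9% for *Timp1*, 66.7% for *Timp2*, 58.2% for *Timp3*, 54.3% for *Mmp2*, 4.58% for *Mmp3*, 41.6% for *Mmp14*, 55.0% for *Adamts1* and 30.0% for *Adamts5*, by its construction of fewer UMIs per cell.

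With each heart left out, 14 of 176 log2 fold changes reversed and 7 were newly called. The genes called ran from 0 to 15 in fibroblasts (15 without IL-33+ replicate 1), from 1 to 22 with the endothelial-marker cells left out (22 without IL-33- replicate 1), from 0 to 13 in macrophages (13 without IL-33+ replicate 3) and from 4 to 92 in the other types (92 without IL-33+ replicate 1). Of the 10 genes, 0 to 1 were called in fibroblasts, 0 to 1 with the endothelial-marker cells left out and 0 to 2 tests in the other types. The new calls were *Mmp14* in fibroblasts and in unconventional T cells, as given above, *Mmp14* with the endothelial-marker cells left out (-1.84 without IL-33+ replicate 1, -1.62 without IL-33- replicate 1), *Mmp19* in unconventional T cells (2.40 without IL-33+ replicate 3) and *Mmp12* in Mo-DCs (3.99 without IL-33- replicate 3).

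The log2 fold change in fibroblasts ran from -0.88 to 0.76 for *Mmp19*, from -0.20 to 0.62 for *Mmp2*, from -1.28 to 0.55 for *Mmp3*, from -0.47 to 0.19 for *Timp2* and from -0.18 to 1.41 for *Timp3*, and from -0.29 to 1.30 for *Timp3* with the endothelial-marker cells left out. In macrophages it ran from -1.33 to 0.90 for *Mmp12*, from -0.64 to 0.30 for *Mmp19* and from -1.11 to 0.074 for *Timp3*. For each of these the direction turned without replicate 2 of a group, and for *Mmp2*, *Mmp3* and *Mmp19* in fibroblasts also without another heart. The difference in the share of UMIs from fibroblasts, in percentage points, ran from -10.5 to 3.26 for *Adamts1*, from 1.18 to 24.8 for *Adamts5*, from -1.42 to -0.201 for *Mmp12*, from -15.6 to 19.3 for *Mmp14*, from -5.37 to 3.98 for *Mmp19*, from -5.34 to 14.8 for *Mmp2*, from -0.781 to 19.7 for *Timp1*, from -11.6 to 16.3 for *Timp2* and from 0.0842 to 42.1 for *Timp3*. No paired analysis was possible because the hearts are separate animals, numbered 1 to 3 for IL-33+ and 4 to 6 for IL-33- grafts in the labels. The latter are called replicates 1 to 3 here, which is a name only.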
